A study of Rattus norvegicus with 8 samples.

Results

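Mbp, which encodes a major protein of compact myelin, was 2.47-fold lower at 1 of its 2 array probes in cultures of rat hippocampal neurons given an shRNA against Sirt6. It showed no detectable change at the other. It belongs to a group of 9 oligodendrocyte lineage and myelin genes examined here: Mbp, Mog, Mag, Mobp, Olig1, Olig2, Sox10, Cspg4 and Pdgfra. The genes were taken by name, as every non-control probe that carries one of these symbols in the array files, and the probes of a gene were kept apart. This gave 16 of 45598 probes. Of the 16, 12 entered the tests because at least 4 of the 8 arrays showed them well above background, and each of the 9 genes kept at least 1 probe.

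RNA was compared between 4 samples with the Sirt6 shRNA and 4 samples with a scrambled shRNA. All were cultures of hippocampal neurons from Wistar rats at postnatal day 0-1, infected after 3 days in culture with lentiviral vectors at a multiplicity of infection of 6 and collected 7 days later, at day 10 in vitro. The series asks what SIRT6, a NAD-dependent deacetylase, does in the shaping of neurons. A single shRNA sequence stood against a single scrambled one, so any other effect of either vector is part of the comparison. No label gives separate cultures for the samples of a group, so the p-values below cover the spread among these 8 samples only, and that spread could be technical.

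Oligodendrocytes arise from dividing precursors that carry the PDGF receptor Pdgfra and the proteoglycan Cspg4, also known as NG2. The transcription factors Olig1, Olig2 and Sox10 set the lineage, and mature cells wrap axons in myelin built of lipids and of proteins such as Mbp, Mobp, Mag and Mog. The Mbp gene also gives longer Golli transcripts, which in mouse are found in neurons and immune cells as well. Cultures of newborn hippocampus usually hold some glia beside the neurons, and in RNA of a whole culture fewer cells of a type and less RNA per cell cannot be told apart.

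The probes of Mbp and Mobp are shown because probes of 1 gene gave different results. Each line holds the last 30 of the 60 bases of a probe as the array files print it, 5′ to 3′, with any AATAAA, the common polyadenylation signal, in capitals.
Mbp A_64_P017163: tattgaAATAAAatAATAAActtgcaatga
Mbp A_64_P017160: cctgtgaattaaaatgtatcagaagataaa
Mobp A_44_P1082019: acgtcAATAAAttcttgccgactgaaaaaa
Mobp A_64_P074471: actggatctgctgtgcctgccagaagacca
Mobp A_44_P1108695: aagcctgtgtaatctactccctgcattaaa

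The files place the first Mbp probe at chr18:79057264-79057323 on the plus strand of build rn4 and describe it as transcript variant 1, with 4 Mbp accessions listed for it. The second lies 30.8 kb upstream, at chr18:79026442-79026501 on the same strand, and carries the accession of variant 6 alone. Below they are called the probes of variant 1 and variant 6 for short, though the first is listed for more than variant 1. The Mobp probes lie at chr8:125144043-125144102, chr8:125135770-125135829 and chr8:125136405-125136464, all on the plus strand. Which exon or UTR these spans fall in was not analysed here. AATAAA, searched on the strand printed, stood in 5 of the 12 tested probes of the 9 genes and in 10.5% of the 28620 kept probes over their whole 60 bases, or in 13.6% when the reverse complement TTTATT was counted too. A match describes the letters of the probe and says nothing of where a transcript ends.

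Levels below are the log2 processed signal of a probe minus the 75th percentile of its array, so that 0 is a bright probe and -5 is one near background. Levels of different probes are not set against each other, since probes differ in how well they bind. On each array 60.4% to 65.3% of the probes were well above background, and median signals ran from 24.1 to 27.5. Sirt6, the check of the labels, had levels of 0.55, 0.58, 0.50 and 0.46 in the Sirt6 shRNA arrays, against 2.10, 2.04, 2.02 and 2.06 in the scrambled arrays. It was lower in every Sirt6 shRNA array and first of all probes by p. All arrays lay on 1 slide, the scrambled ones in its row 1 and the Sirt6 shRNA ones in its row 2, and the effect of the row and that of the shRNA cannot be told apart.

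**Figure D1:**
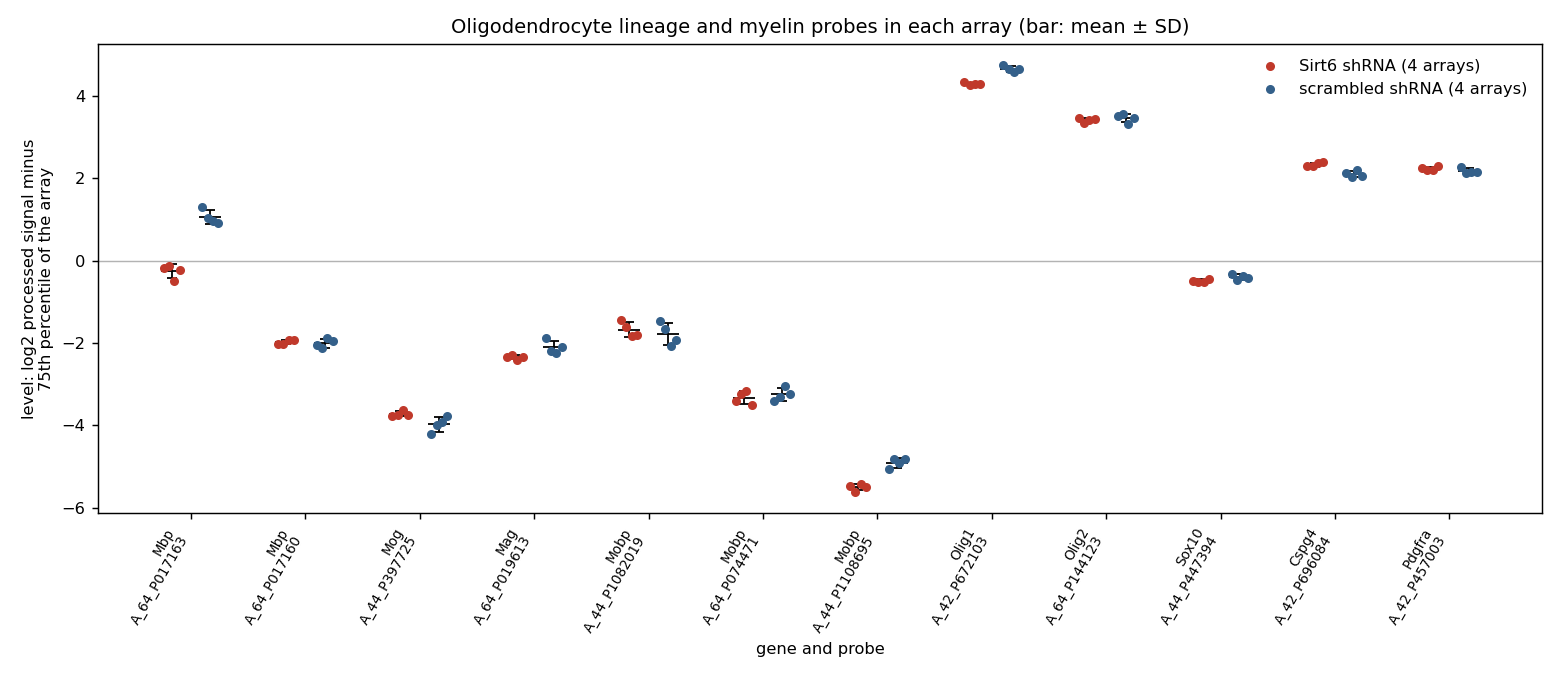
Level (log2 processed signal minus the 75th percentile of the array) of the 12 tested probes in 4 Sirt6 shRNA arrays (red, left) and 4 scrambled shRNA arrays (blue, right), with mean and SD as bars. The first Mbp probe has the widest gap, from -0.49 to -0.12 with the Sirt6 shRNA and from 0.91 to 1.30 with the scrambled shRNA.

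Among the myelin genes, the Mbp probe of variant 1 was the one with a large change. Its levels were -0.17, -0.12, -0.49 and -0.23 in the Sirt6 shRNA arrays and 1.30, 1.03, 0.97 and 0.91 in the scrambled arrays, which are processed signals of 294, 300.0, 244 and 275 with the Sirt6 shRNA against 771, 653, 653 and 602 with the scrambled shRNA. Every Sirt6 shRNA array lay below every scrambled array, with replicate 3 lowest in the first group and replicate 1 highest in the second. The log2 fold change was -1.31 ± 0.11 (SE, n = 4 per group, 95% interval -1.55 to -1.06), with a limma adjusted p of 0.000147, and it ranked 391 of 28620 probes by p. Leaving out 1 array at a time moved it between -1.35 and -1.22.

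The Mbp probe of variant 6 gave another picture. Its levels were -2.02, -2.03, -1.92 and -1.92 in the Sirt6 shRNA arrays and -2.06, -2.12, -1.88 and -1.95 in the scrambled arrays. The groups overlapped, and all 8 arrays read it well above background, with signals between 73.6 and 90.6. Its log2 fold change was 0.03 ± 0.06 (SE, n = 4 per group, limma adjusted p = 0.772), with an interval of -0.11 to 0.17 that leaves out a fall of the size seen at the variant 1 probe.

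The gap between the Mbp probes within an array, in which the scaling of the array cancels, was 1.72 ± 0.21 in log2 (SD, n = 4, 1.44 to 1.90) with the Sirt6 shRNA and 3.05 ± 0.25 (SD, n = 4, 2.85 to 3.36) with the scrambled shRNA. It was narrower in each Sirt6 shRNA array than in any scrambled array, and the group means differed by 1.33. The two-sided exact permutation p was 0.0286, the smallest that 70 splits of the arrays can give. That these probes differ was known from earlier results on the same arrays, so the test measures a size and is no independent support. The gap shows unequal change at the probes and does not by itself show that the variant 6 transcript stayed the same.

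**Figure D2:**
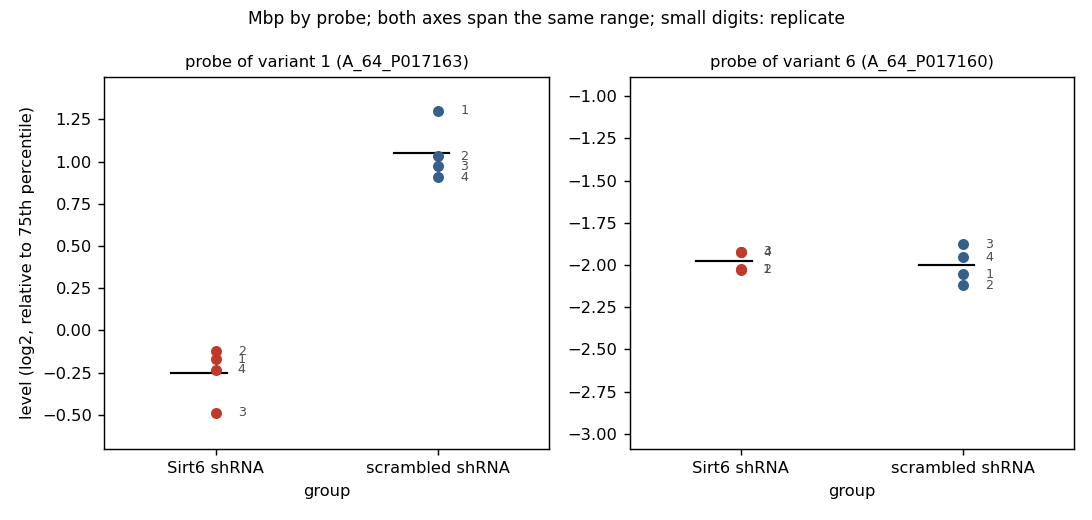
Level (log2, relative to the 75th percentile of the array) of the Mbp probes of variant 1 (left panel) and variant 6 (right panel) in the 4 Sirt6 shRNA arrays (red) and the 4 scrambled arrays (blue); the lines are group means, the digits replicate numbers, and both axes span the same range. The variant 1 probe averages -0.25 with the Sirt6 shRNA and 1.05 with the scrambled shRNA, while the groups overlap at the variant 6 probe.

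Mobp, a small basic protein of central myelin, has 5 probes, of which 3 were tested and they did not move together. The brightest, A_44_P1082019, is spotted 10 times per array and had levels of -1.44, -1.61, -1.84 and -1.80 with the Sirt6 shRNA and -1.47, -1.65, -2.07 and -1.92 with the scrambled shRNA. Its groups overlapped, and the log2 fold change was 0.11 ± 0.15 (SE, n = 4 per group, interval -0.23 to 0.44, limma adjusted p = 0.626). The probe A_64_P074471 ran from -3.50 to -3.15 with the Sirt6 shRNA and from -3.40 to -3.04 with the scrambled shRNA, also overlapping, with -0.08 ± 0.10 (limma adjusted p = 0.611).

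The third Mobp probe, A_44_P1108695, reads a predicted variant named X2. Its levels were -5.47, -5.61, -5.41 and -5.50 with the Sirt6 shRNA and -5.07, -4.81, -4.92 and -4.82 with the scrambled shRNA, with no overlap. It was called lower at -0.59 ± 0.07 (SE, n = 4 per group, limma adjusted p = 0.000745). The call rests on dim spots: processed signals were 6.81 to 8.98 with the Sirt6 shRNA and 9.74 to 11.7 with the scrambled shRNA. Of the 4 Sirt6 shRNA arrays 3 passed the background limit, each with 1 of its 2 spots well above background. Scrambled replicate 1 also passed with 1 of its 2 spots. The SD between the 2 spots of an array reached 1.09 in log2. With normexp background correction the change was -0.10 and the call was lost (adjusted p = 0.0730). The other 2 Mobp probes, A_44_P1156806 and A_44_P353699, were well above background on 0 of 8 arrays.

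Mag, a glycoprotein of the inner myelin layer that binds the axon, had levels of -2.33, -2.29, -2.40 and -2.33 with the Sirt6 shRNA, against -1.89, -2.19, -2.24 and -2.10 with the scrambled shRNA. Each Sirt6 shRNA array lay below each scrambled array, with a narrow gap to scrambled replicate 3. The probe has 10 spots per array, of which 7 were used on scrambled replicate 4. The difference of -0.23 ± 0.08 (SE, n = 4 per group) did not pass the test (limma adjusted p = 0.0567, range 0.0384 to 0.265 over the settings tried). It passed in 7 of the 21 settings, quantile normalization and median centring among them, and was -0.14 with normexp. The other Mag probe was well above background on 0 of 8 arrays.

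Mog, a protein of the outermost myelin surface that appears late in maturation, lay the other way. Its levels were -3.76, -3.74, -3.63 and -3.75 with the Sirt6 shRNA and -4.20, -4.00, -3.91 and -3.78 with the scrambled shRNA. The groups did not overlap, though scrambled replicate 4 lay just below the lowest Sirt6 shRNA array. The difference of 0.25 ± 0.09 (SE, n = 4 per group) did not pass (limma adjusted p = 0.0667). It passed in 1 of the 21 settings, at 0.32 without scrambled replicate 4 (adjusted p = 0.0285), and was 0.06 with normexp (adjusted p = 0.182) and 0.13 with 16 added before log2 (adjusted p = 0.0797). Its second probe was well above background on 1 array of each group.

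The lineage transcription factors split. Olig1, which acts in oligodendrocyte maturation, had levels of 4.33, 4.26, 4.28 and 4.30 with the Sirt6 shRNA, against 4.74, 4.65, 4.57 and 4.66 with the scrambled shRNA. All Sirt6 shRNA arrays lay below all scrambled arrays, and the fall was 1.29-fold (log2 -0.37 ± 0.05 SE, n = 4 per group, limma adjusted p = 0.000902). Scaled on the spike-in probes it was -0.29 and missed the threshold (adjusted p = 0.0576).

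Olig2, which starts the lineage, had levels of 3.46, 3.35, 3.42 and 3.45 with the Sirt6 shRNA and 3.52, 3.56, 3.33 and 3.47 with the scrambled shRNA. The groups overlapped, with a difference of -0.05 ± 0.06 (SE, n = 4 per group, interval -0.18 to 0.08, limma adjusted p = 0.549). Sox10, which drives myelin genes, had levels of -0.48, -0.51, -0.52 and -0.44 with the Sirt6 shRNA and -0.32, -0.47, -0.38 and -0.43 with the scrambled shRNA, overlapping too, and its difference was -0.09 ± 0.05 (interval -0.19 to 0.01, limma adjusted p = 0.174). The intervals of both leave out a fall as large as the one fitted for Olig1.

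Of the precursor surface genes, Cspg4 was higher. Its levels were 2.29, 2.30, 2.36 and 2.39 with the Sirt6 shRNA, against 2.13, 2.03, 2.21 and 2.06 with the scrambled shRNA. The groups did not overlap, and the rise was 1.17-fold (log2 0.23 ± 0.05 SE, n = 4 per group, limma adjusted p = 0.0134). It was not called after median centring (0.18, adjusted p = 0.0687) or scaling on spike-ins (0.30, adjusted p = 0.0566). Pdgfra had levels of 2.25, 2.20, 2.19 and 2.30 with the Sirt6 shRNA and 2.28, 2.12, 2.15 and 2.14 with the scrambled shRNA, which overlapped, and its difference was 0.06 ± 0.05 (interval -0.05 to 0.17, limma adjusted p = 0.378).

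**Figure D3:**
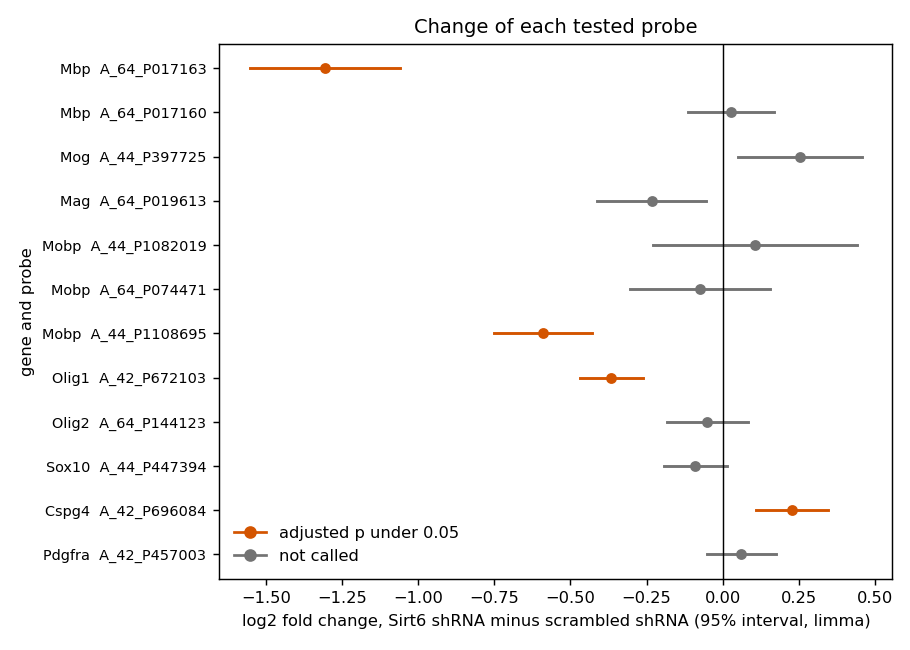
Log2 fold change (Sirt6 shRNA minus scrambled shRNA) of the 12 tested probes with limma's 95% interval; orange marks an adjusted p under 0.05 and grey the rest. The variant 1 probe of Mbp at -1.31 lies apart from the other 11, which run from -0.59 to 0.25.

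In all, 4 of the 12 tested probes were called, 1 higher (Cspg4) and 3 lower (Mbp, Mobp and Olig1, with 1 probe each), beside 28.4% of all kept probes, 14.1% higher and 14.4% lower. After median centring 4 probes were called, 0 higher and 4 lower, but not the same 4. Cspg4 stayed higher at 0.18 and lost its call, while Mag gained one at -0.28. With spike-in scaling 2 were called, both lower. The groups did not overlap for 6 of the 12 probes, beside 32.1% of all kept probes. With 12 probes, the called share is near that of the whole array. The median log2 fold change of the 12 was -0.06, beside 0.02 over all kept probes, while the median absolute change of called probes on the array was 0.31. The Mbp change was large among called probes, and in size that of the dim Mobp probe (-0.59) also lay above that median. That of Olig1 (-0.37) lay a little above it in size, and that of Cspg4 (0.23) below it.

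A wider list of oligodendrocyte genes held 75 further genes with a probe, of which 62 could be tested by their brightest probe. Of these, 9 were higher and 10 lower, beside 29.5% of all genes called on the same basis, 15.1% higher and 14.4% lower, and their median log2 fold change was 0.05 beside 0.02 over all genes. The split was 3 higher and 13 lower after median centring and 5 and 4 with spike-in scaling. Changes in both directions occurred within each of the 4 groups of the list.

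Of 20 other precursor and lineage regulators tested, 2 were higher and 4 lower. Id4, an inhibitor of differentiation factors that holds precursors back, was lower by limma (-0.57 ± 0.04, adjusted p = 7.15e-05), with levels of -0.69, -0.68, -0.77 and -0.74 in the Sirt6 shRNA arrays, against -0.20, -0.13, -0.15 and -0.12 in the scrambled arrays. Bcas1, which marks newly forming oligodendrocytes, was lower too (-0.42 ± 0.08, adjusted p = 0.00626). Sox8, a close relative of Sox10, was higher (0.45 ± 0.11, adjusted p = 0.0185), by 0.19 with normexp and called in all 21 settings. Myrf, the regulator that switches on myelin genes, was at -0.19 ± 0.09 and did not pass (adjusted p = 0.161, and 0.0313 with the replicate number as a block). Gpr17, a receptor of committed precursors, was at 0.00 ± 0.14 (adjusted p = 0.992).

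Of 16 other myelin protein genes tested, 2 were higher and 3 lower. Cnp, an enzyme of the cytoplasmic side of myelin, was called lower at -0.21 ± 0.06 with overlapping groups (limma adjusted p = 0.0365), a call lost in 9 of the 21 settings, with adjusted p from 0.0143 to 0.362. Gpr37, a receptor of mature oligodendrocytes, was higher (0.51 ± 0.04, adjusted p = 0.000179), by 0.31 with normexp. Sirt2, a sirtuin abundant in myelin, was lower (-0.22 ± 0.04, adjusted p = 0.00732) but not with spike-in scaling (adjusted p = 0.223). Mal, Opalin and Ermn, genes of late myelin, were well above background on 0 of 8 arrays, with highest processed signals of 5.72, 3.21 and 6.48.

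Of 13 lipid and metabolic genes of oligodendrocytes, 4 were higher and 1 was lower. Aspa, which splits N-acetylaspartate for lipid synthesis, was higher (0.58 ± 0.09, limma adjusted p = 0.0029), by 0.29 with normexp and called in all 21 settings. Tf, transferrin, was lower (-0.47 ± 0.07, adjusted p = 0.00242). Car2, a carbonic anhydrase, was higher at 0.26 and Qdpr, a pteridine reductase, at 0.21, both uncalled, though similar in size, after median centring (0.22 for Car2 and 0.17 for Qdpr) and spike-in scaling (0.33 and 0.28). Of 13 signals and receptors that act on the lineage, 1 was higher and 2 were lower. Cntf, a survival factor, was lower (-0.40 ± 0.07, adjusted p = 0.00471), as was Lingo1, a brake on myelination (-0.16 ± 0.04, adjusted p = 0.0127), though not with spike-in scaling (adjusted p = 0.528). Bmp4, which steers precursors toward astrocytes, was called higher with overlapping groups (0.40 ± 0.13, adjusted p = 0.0487; 0.11 with normexp) and lost the call in 13 of the 21 settings (highest adjusted p = 0.109).

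**Figure D4:**
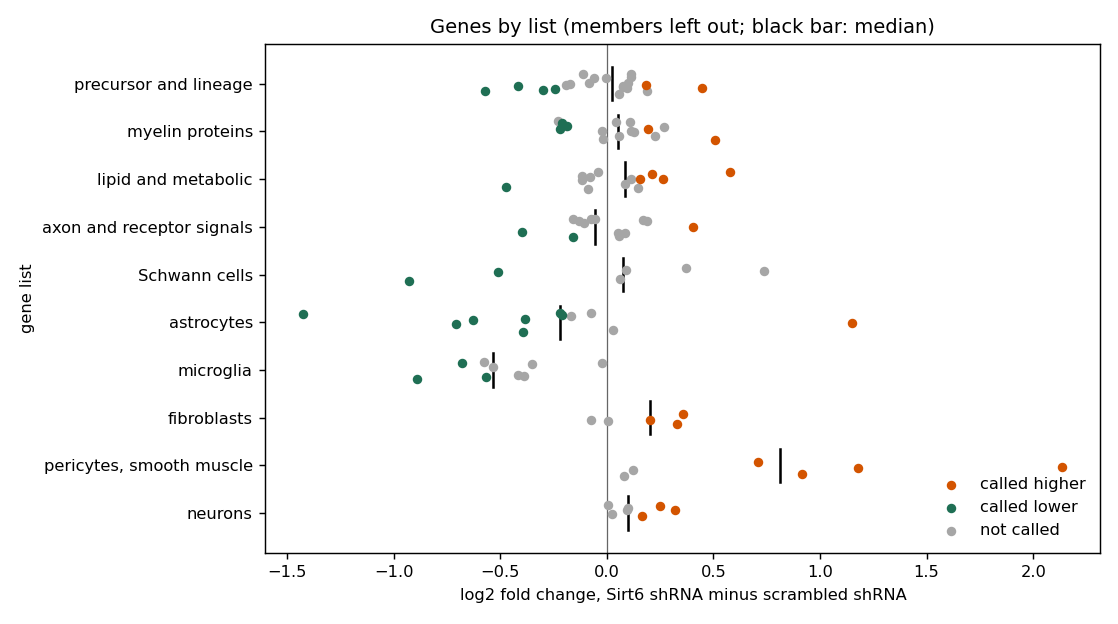
Log2 fold change (Sirt6 shRNA minus scrambled shRNA) of each tested gene by its brightest probe, in 4 oligodendrocyte lists without the 9 genes and 6 lists of other cells; orange is called higher, green called lower, grey not called, and black bars are medians. The oligodendrocyte lists lie on both sides of 0, with medians from -0.06 to 0.09, while the median is -0.53 for microglia, -0.22 for astrocytes and 0.81 for pericytes and smooth muscle.

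Markers of other cells that the cultures could hold were read in the same way, beside the 29.5% of all genes called. Sums of linear levels over a list weigh its bright probes most. Astrocyte markers were called lower in 7 of 11 cases and higher in 1, with a summed linear level of 235 to 258 with the Sirt6 shRNA against 328 to 360 with the scrambled shRNA. S100b, which oligodendrocytes also carry, changed by -1.42 and Gfap by -0.71, while the gap junction gene Gjb6 was higher by 1.15 (0.49 with normexp), and for none of the 3 did the groups overlap. Pericyte and smooth muscle markers, cells that also carry Cspg4, included 4 of 6 called higher and 0 called lower, with sums of 11.0 to 13.4 in the Sirt6 shRNA arrays against 3.18 to 3.87 in the scrambled arrays. Tagln, higher by 2.14 in log2, made up 87.9% to 89.7% of the sum in the Sirt6 shRNA arrays and 66.9% to 73.1% in the scrambled arrays, and without it the sums were 1.26 to 1.38 in the Sirt6 shRNA arrays and 0.98 to 1.06 in the scrambled arrays. The 4 called were Tagln, Acta2, Myh11 and Abcc9. Abcc9 is dim: it was well above background on 2 of the 4 scrambled arrays, and its change of 1.18 was 0.13 with normexp. The pericyte markers Rgs5 and Kcnj8 were well above background on 0 arrays. Fibroblast markers, cells that also carry Pdgfra, included 3 of 5 called higher and 0 called lower, with sums of 19.0 to 21.6 in the Sirt6 shRNA arrays against 15.2 to 17.7 in the scrambled arrays. The call of Col1a1 among them held in 12 of the 21 settings.

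Of 9 microglial markers 3 were lower and 0 higher, with sums of 13.2 to 25.4 in the Sirt6 shRNA arrays and 20.0 to 27.7 in the scrambled arrays, which overlap. Aif1, the brightest, was highest in replicate 2 of both groups, at 3.70 with the Sirt6 shRNA and 3.91 with the scrambled shRNA. Whether arrays of the same number share a source was not tested. The calls of P2ry12 and Csf1r each held in 13 of the 21 settings, in 1 and 2 of the 8 that leave out an array, and neither held without the filter on dim probes, while Tmem119 was at -0.89 (adjusted p = 0.00859). Schwann cell markers, cells that also carry Mbp, included 2 of 6 called lower and 0 higher, with sums of 8.97 to 9.17 in the Sirt6 shRNA arrays against 8.91 to 9.45 in the scrambled arrays. Of these, Egr2, at -0.93 on its brightest probe and -0.16 on the other, is also induced by neuronal activity. Of 7 neuronal markers 3 were higher and 0 lower, with sums of 101 to 116 in the Sirt6 shRNA arrays against 95.2 to 99.6 in the scrambled arrays. Without Rbfox3, the brightest, the sums were 62.4 to 71.1 in the Sirt6 shRNA arrays and 61.1 to 63.8 in the scrambled arrays, which overlap. Of the 3 genes called higher, Rbfox3 and Map2 lost the call after median centring (adjusted p = 0.0688 and 0.195) or spike-in scaling (0.0830 and 0.124). Map2 was called in 2 of the 8 settings that leave out an array. Its other kept probes were at 0.34 (limma adjusted p = 0.0439) and -0.01 (limma adjusted p = 0.938). The called shares of the microglial and Schwann cell lists, 33.3% each, lie near that of all genes. Their median log2 fold changes differ, at -0.53 for microglia and 0.08 for Schwann cells, beside 0.02 over all genes. All 9 microglial changes were negative, from -0.89 (Tmem119) to -0.02 (Cx3cr1), most of them uncalled. The part of any of these cells in the Mbp, Olig1 or Cspg4 results was not tested.

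By levels over the 8 arrays, the genes most like the variant 1 probe of Mbp were Cemip (Pearson r = 0.999), Gpx3, Tead1, Epas1 and Efcab14 (r = 0.997 to 0.998), all of which were lower with the Sirt6 shRNA, by log2 changes of -0.63, -2.17, -0.54, -1.02 and -0.27. This measure mostly reads the step between the groups. After each group's mean was taken out, the most similar were Tmem258b (r = 0.986), Car13, Atp5mc2, Mrps18c and Rab11fip5 (r = 0.977 to 0.983), and their fold changes were small, from -0.16 to 0.10. The lists by these measures share no gene. The points are 8 arrays from 1 slide, and the correlations are given as a description.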

How the data were processed

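Total RNA of 8 samples was labelled with Cy3 and measured on one-colour Agilent arrays. The spot intensity in the deposited files is the background-subtracted processed signal; the submitters' processing notes name Agilent Feature Extraction, version 11.5.1.1. The table of log2 values deposited by the authors equalled the log2 processed signal minus 1 constant per array (SD of the difference at most 0.0029), with 75th percentiles of 0.01 or less, and served as an alternative. No value column was left unmapped.

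Control and outlier-flagged spots were left out, spots of a probe were averaged in log2, and the 75th percentile of each array was subtracted. Probes well above background on at least 4 of 8 arrays were kept (28620). A two-sided moderated test (limma 3.58.1, R 4.3.3, functions lmFit and eBayes) was run on every kept probe, p-values were adjusted by Benjamini and Hochberg's method over all of them, and a call needed an adjusted p under 0.05; every adjusted p in the text comes from this fit or a named alternative. The contrast is Sirt6 shRNA minus scrambled shRNA. List genes were read at their brightest kept probe (22546 genes), named through RefSeq gene tables of assembly GRCr8 or the name in the file. No multiple-testing adjustment was made over the members alone.

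All 9 genes were named with every probe. From each other list, up to 4 called genes of largest change were eligible (where under 2 were called, the 2 lowest in p), and Cnp, Myrf, Mal and Gpr17 always; Opalin, Ermn, Rgs5 and Kcnj8 were named after their values were seen. For likeness to Mbp the 5 highest correlations were taken. Some genes of these lists are counted but not reported here by name. Trf was left out as an alias of Tf. The genes and lists were chosen with earlier results of these data known. The code was tested on simulated data. Alternatives were normexp (offset 50), quantile normalization, median centring, 5 E1A spike-in probes, the authors' values, 16 added before log2, filters, variance models, weights per array, a block for the replicate number, and leaving out each array. Same-numbered arrays correlated in their deviations at r = 0.020 to 0.149, and arrays of different numbers at r = -0.217 to 0.113. Replicates 2 and 3 had the highest values of all pairs (0.149 and 0.139). No label pairs the samples, so the main fit did not pair them, and a shared effect of the replicate number is possible. The number of arrays limits the precision.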

Additional observations from a re-analysis of the deposited data

How the results depend on the processing

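Scaling mattered most. On the E1A spike-in probes 2 of the 12 probes of the 9 genes were called instead of 4, 9 of the 62 wider genes instead of 19, and 3995 of all kept probes instead of 8129, with 61.7% of the last higher, against 49.5% as reported and 33.5% after median centring. The cause was not tested. Leaving out 1 array gave 4 to 5, 15 to 19 and 6196 to 7699 calls, and moved the difference between the Mbp probes between -1.40 and -1.23. With the replicate number as a block, the calls were 4, 17 and 7576; the block ended the calls of Cnp (adjusted p = 0.0535), Car2 (0.0510), Col1a1 (0.0892) and Bmp4 (0.0664) and made that of Myrf. The block also lowered the SE of the brightest Mobp probe from 0.15 to 0.05, and that probe stayed uncalled (adjusted p = 0.187). Arrays of replicates 2 and 3 correlated best with their own number, and those of replicates 1 and 4 did not. The variant 1 probe of Mbp was lower and called in all 21 settings (-1.35 to -1.17). Signs turned only for uncalled values: the variant 6 probe of Mbp (-0.017 after median centring, and -0.012 to 0.069 when 1 array was left out), Olig2 (0.021 on spike-ins) and Gpr17 (0.0019 with normexp, 0.069 on spike-ins, 0.040 with array weights, and -0.094 to 0.096 when 1 array was left out). Over 48 single results and their alternatives, 863 of 955 values kept direction and call, 72 lost the call, 10 gained it and 10 changed sign. Signals near background limit the third Mobp probe and Mog.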
